A study of Homo sapiens with 2 samples.

Results

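The phagocyte NADPH oxidase was examined in NB4 cells through 5 of its subunit genes, CYBB, CYBA, NCF1, NCF4 and RAC2, which were chosen by gene name and make up 5 of the 11619 genes with a value in both libraries. NB4 is a cell line grown from human APL and is positive for PML/RARα. The cells had been infected with a lentivirus for an shRNA against the long non-coding RNA CRNDE (sh-CRNDE) or for a non-targeting shRNA (sh-Control), and RNA was taken 3 days later. There was 1 library per group, so replicate error is unknown and no p-value is given. Both groups thus received an shRNA vector, which also encodes the fluorescent protein ZsGreen1. More than 1 shRNA against CRNDE was designed, and the one behind this library is not given in the sources used here.

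The oxidase moves electrons from NADPH across a membrane onto oxygen, and the superoxide it makes helps neutrophils and monocytes to kill microbes. Its core in the membrane is a heterodimer of gp91phox (the catalytic subunit, from CYBB) and p22phox (from CYBA). In resting cells subunits such as p47phox (NCF1) and p40phox (NCF4) wait in the cytosol, and they join the core together with a GTP-bound Rac protein when the cell is stimulated. Inherited loss of the phox subunits causes chronic granulomatous disease. Myeloid precursors raise these genes as they mature beyond the promyelocyte stage.

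The level of a gene is given as FPKM, which is scaled to transcript length and can therefore be set side by side between genes. A change is the sh-CRNDE value of log2(FPKM + 1) less the sh-Control value, and is called past the threshold at 1.5-fold, which is 0.585 on that scale. CRNDE itself was at 5.92 FPKM in sh-Control against 1.85 FPKM with sh-CRNDE, a change of -1.28. Depth is unknown from FPKM values, so no counting error can be given. Of the promyelocyte markers, 7 of 8 had a value, and their summed level was 1444 FPKM in sh-Control against 856 FPKM with sh-CRNDE. Most of both sums was MPO, at 1135 and 738 FPKM. Of the 7, 5 were past the threshold and all 5 of them lower, against 8.78% of all genes averaging at least 1 FPKM. Of the other 2, CD33 was lower and LYZ higher, neither past the threshold. ELANE was not analysed here. No marker of monocytes, lymphoid, erythroid, platelet, stromal or epithelial cells was above 4.82 FPKM in either library. Of these markers FCN1, a monocyte gene, was past the threshold and higher, from 0.726 to 1.93 FPKM (0.76), and CD79A, a B cell gene, past it and lower, from 1.02 to 0.256 FPKM (-0.68). CD79A averaged less than 1 FPKM, and its change was -0.45, not past the threshold, after the correction for base composition described further below. CD14, CD3E, MS4A1, HBB and COL1A1 were not analysed here.

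The members lie at separate loci on 4 chromosomes and differ in base composition. CYBB lies on chromosome X from 37780018 to 37813461 (GRCh38, plus strand) with 13 exons, and CYBA on chromosome 16 from 88643275 to 88651083 (minus strand) with 6 exons. NCF4 (chromosome 22, 36860988 to 36878017, plus strand, 10 exons) and RAC2 (chromosome 22, 37225270 to 37259594, minus strand, 7 exons) are on the same chromosome, 347 kb apart. NCF1 (chromosome 7, 74774011 to 74789315, plus strand, 11 exons) is the member with near-identical copies. RefSeq start sites (GRCh38.p14) matched 3 of the 5 members, and the 250 bases before each start are shown because the motifs named next differ between CYBB and CYBA. The GC content used further below is that of the transcripts and not of these windows. Capitals mark GAGGAA, the core of the purine-rich site that the myeloid factor PU.1 binds, CCAAT, and the GC box GGGCGG, each on either strand.
CYBB, chrX:37779809-37780058, plus strand: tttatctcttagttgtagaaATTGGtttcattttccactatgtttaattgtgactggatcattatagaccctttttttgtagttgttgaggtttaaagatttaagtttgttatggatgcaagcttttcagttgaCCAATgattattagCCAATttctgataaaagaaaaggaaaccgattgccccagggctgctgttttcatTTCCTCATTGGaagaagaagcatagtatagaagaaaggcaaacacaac
CYBA, chr16:88651054-88651303, minus strand: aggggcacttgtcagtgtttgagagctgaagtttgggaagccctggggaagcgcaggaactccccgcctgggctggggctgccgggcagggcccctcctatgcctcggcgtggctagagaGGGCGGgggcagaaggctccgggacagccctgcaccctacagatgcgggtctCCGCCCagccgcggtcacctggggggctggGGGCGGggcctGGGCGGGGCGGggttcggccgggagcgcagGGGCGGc
NCF1, chr7:74773761-74774010, plus strand: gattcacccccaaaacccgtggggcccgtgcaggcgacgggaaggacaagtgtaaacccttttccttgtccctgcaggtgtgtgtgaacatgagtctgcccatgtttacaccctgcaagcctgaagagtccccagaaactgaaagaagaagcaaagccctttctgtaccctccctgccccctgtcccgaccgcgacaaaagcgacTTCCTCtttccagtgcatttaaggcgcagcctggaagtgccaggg

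The CYBB window held 34.0% G and C and the CYBA window 73.6%, and 4.36% and 86.9% of the 35116 RefSeq promoters in the table were lower. In CYBB the GAGGAA core, read on the opposite strand, lay at -48 to -43 from the start and was followed directly, with no shared base, by a CCAAT box on that strand at -42 to -38. NCF1 held the same core at -45 to -40, also on the opposite strand. CYBB held 4 CCAAT boxes and no GC box, whereas CYBA held 6 GC boxes, a pair of which shared 1 base, and neither of the other motifs. Of all promoters, 23.6% held GAGGAA, 32.0% CCAAT and 42.6% GGGCGG in the same window. Positions are counted from the RefSeq start. For CYBB and CYBA that start lies inside the gene span given above, so the part of the window nearest the start overlaps the gene. These matches describe letters and not binding.

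Both membrane subunit genes were lower in sh-CRNDE, and CYBB was the only member past 1.5-fold. CYBB was at 42.0 FPKM in sh-Control against 26.4 FPKM with sh-CRNDE, a change of -0.65 in log2(FPKM + 1). CYBA, which stabilises gp91phox and carries the docking site for p47phox, was at 19.9 FPKM in sh-Control against 14.2 FPKM with sh-CRNDE, a change of -0.46. CYBB was thus the most abundant member in both libraries and CYBA the next. The ratio of CYBB to CYBA in FPKM was 2.10 in sh-Control against 1.86 with sh-CRNDE.

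The cytosolic subunits spread from a value near the membrane pair to a change of the opposite sign. RAC2, the Rac GTPase of blood cells, was at 14.1 FPKM in sh-Control against 10.4 FPKM with sh-CRNDE, a change of -0.41. NCF4, whose p40phox reads a phosphoinositide on the phagosome, was at 13.8 FPKM in sh-Control against 11.9 FPKM with sh-CRNDE, a change of -0.20. NCF1, the organiser subunit that carries the other cytosolic phox proteins to the core, was at 0.596 FPKM in sh-Control against 0.670 FPKM with sh-CRNDE, a change of 0.07. RAC2 and NCF4 were close in level in both libraries, and NCF1 was far below them, with NCF4 over NCF1 at 23.2 in sh-Control against 17.8 with sh-CRNDE.

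**Figure D1:**
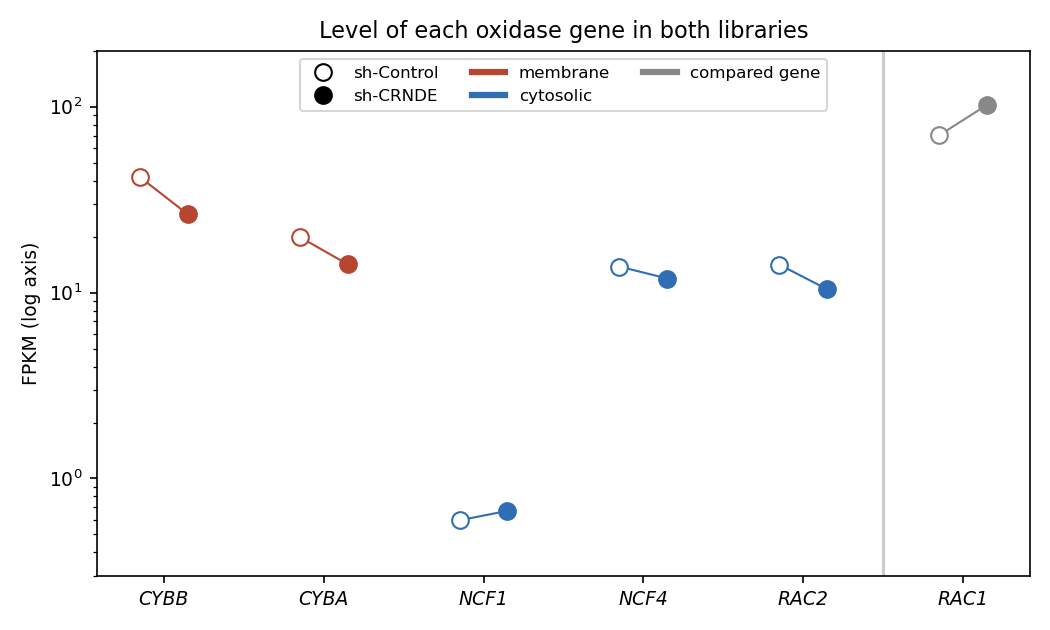
FPKM (log axis) of the 5 members and of RAC1, with the sh-Control library as open and the sh-CRNDE library as filled circles, 1 library each and no error bars. CYBB, CYBA, NCF4 and RAC2 were lower in sh-CRNDE, while NCF1 stayed under 1 FPKM in both libraries and RAC1 was higher in sh-CRNDE.

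Of the 5 members, 4 were lower in sh-CRNDE, against 50.8% of all listed genes, and 1 was past 1.5-fold and lower, against 8.83% of all listed genes (17.2% were past it in either direction). No member was past 1.5-fold and higher, against 8.38% of all genes. The median change of the members was -0.41, beside -0.01 over all genes, whose middle 50% lay between -0.26 and 0.23. A lower change than that of CYBB was found in 7.27% of all genes, and the shares were 12.9% for CYBA, 15.5% for RAC2, 29.9% for NCF4 and 57.9% for NCF1. In a bulk library fewer cells that express a gene and less RNA per cell cannot be told apart.

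**Figure D2:**
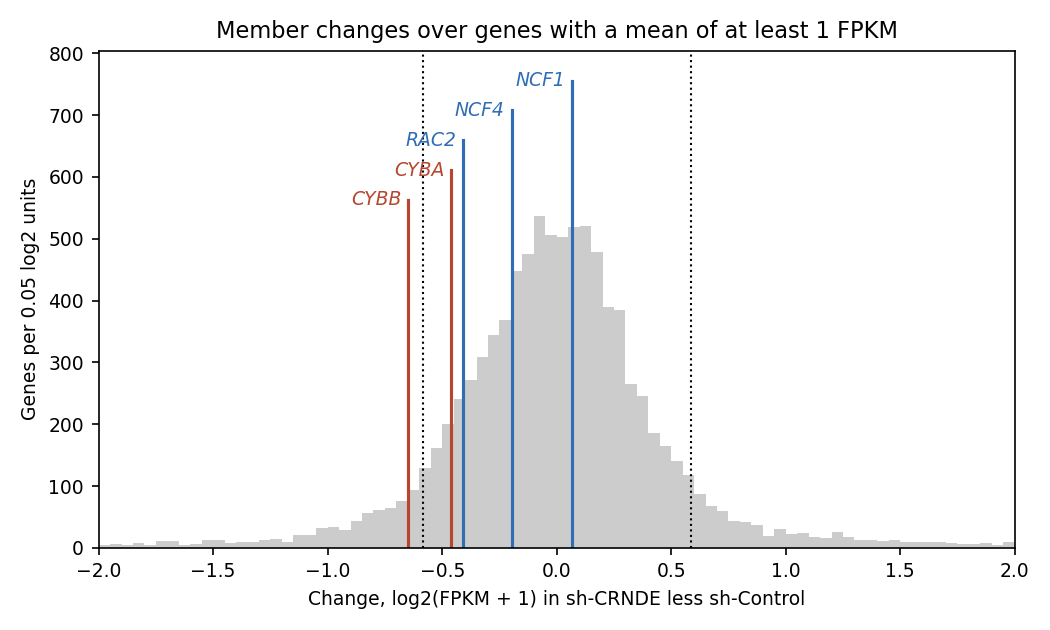
Histogram of the change in log2(FPKM + 1), sh-CRNDE less sh-Control, for the 9415 genes averaging at least 1 FPKM (those beyond 2 log2 units are not drawn), with vertical lines at the changes of the membrane (red) and cytosolic (blue) members and dotted lines at 1.5-fold. CYBB alone lies beyond the dotted line, at -0.65, and NCF1, which is itself under 1 FPKM, lies at 0.07.

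Set against each other, the membrane subunits were lower than the cytosolic subunits by 0.36 in median change, from a median of -0.55 for CYBB and CYBA and of -0.20 for NCF1, NCF4 and RAC2. Their summed levels gave the same order. The membrane subunits together were at 61.9 FPKM in sh-Control against 40.6 FPKM with sh-CRNDE, which is 1.52-fold lower. The cytosolic subunits together were at 28.5 FPKM in sh-Control against 23.0 FPKM with sh-CRNDE, which is 1.24-fold lower. The ratio of the membrane to the cytosolic sum went from 2.17 to 1.77.

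In all 6 pairs of 1 membrane and 1 cytosolic gene the membrane gene had the lower change, with differences between -0.71 for CYBB with NCF1 and -0.05 for CYBA with RAC2. The last pair was close to equal. The pairs share their genes and come from 1 library per group, so their number is a description. Of the summed FPKM of the 5 members, CYBB made up 46.4% in sh-Control and 41.5% in sh-CRNDE, whereas CYBA kept a similar share, at 22.1% and 22.3%. NCF4 went from 15.3% to 18.7%, and RAC2 from 15.6% to 16.4%.

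Base composition moved with the change across genes, and it touched the membrane pair in opposite ways. The CYBB transcript has 40.9% G and C, and the median change of the 469 genes of like composition, CYBB among them, was 0.13. The CYBA transcript has 68.1% G and C, and the median change of the 469 genes like it, CYBA among them, was -0.39. After these medians were subtracted, CYBB was at -0.78 and CYBA at -0.08, so that CYBA differed little from other genes as rich in G and C. On the same scale RAC2 was at -0.22, NCF4 at -0.01 and NCF1 at 0.36, each from a bin with a negative median, and CYBA was then above RAC2 by 0.14, which leaves the membrane gene lower in 5 of the 6 pairs.

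**Figure D3:**
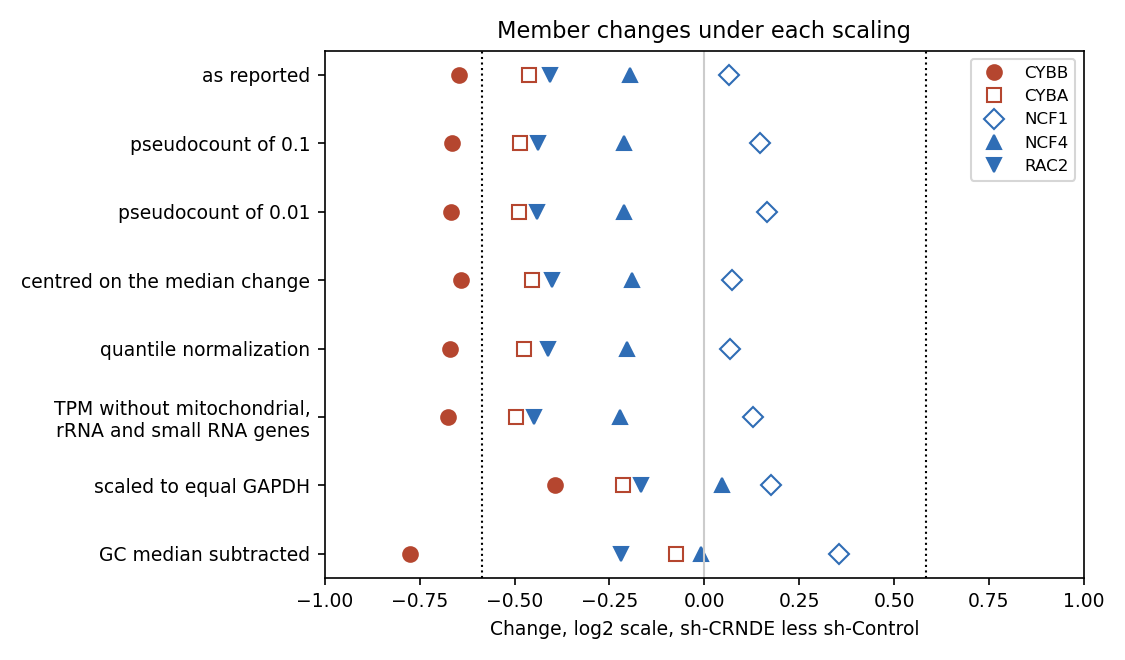
Change of each member on the log2 scale (sh-CRNDE less sh-Control) as reported and under each other pseudocount or scaling, with membrane members in red, cytosolic members in blue and dotted lines at 1.5-fold. CYBB is the lowest member in each row and is inside the dotted line only with GAPDH set equal, at -0.39, while CYBA moves from -0.46 as reported to -0.08 with the GC median subtracted.

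The call of CYBB was lost under 1 of the scalings. With both libraries scaled to equal GAPDH, which was at 942 FPKM in sh-Control against 785 FPKM with sh-CRNDE, CYBB was at -0.39 and not past 1.5-fold. That scaling moved the median of all genes to 0.19.

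The low level of NCF1 has to be read together with its copies. NCF1B (chromosome 7, 73220646 to 73235787, plus strand) and NCF1C (chromosome 7, 75156639 to 75172044, minus strand) are pseudogenes that hold a single GT at the start of the second exon, where NCF1 holds it in tandem, and their reading frame is shifted by this. The start of that exon on the GRCh38 genome is printed for the 3 loci, with 16 bases of the intron before it in lower case and the GT copies in capitals, because reads that cover no such difference cannot tell the loci apart.
NCF1, chr7:74777251-74777280, plus strand: tctggctttcccccagGTGTacatgttcct
NCF1B, chr7:73223862-73223891, plus strand: tctggctttcccccagGTacatgttcctgg
NCF1C, chr7:75168697-75168726, minus strand: tctggctttcccccagGTacatgttcctgg

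NCF1 held 2 copies of GT at this place and each pseudogene 1. Over the aligned bases, the NCF1-201 transcript was 99.0% identical to NCF1B-201 and 99.4% identical to NCF1C-201. Of the 1300 windows of 50 bases in NCF1-201, 83.9% also occurred in transcripts of these other loci. No such window of CYBB, CYBA, NCF4 or RAC2 occurred in a transcript of another gene, on either strand, so that NCF1 alone among the members shared windows of this length. The NCF4 locus overlaps the antisense gene NCF4-AS1, and CYBB lies within the span of the longer gene ENSG00000250349 on the same strand. The library kit keeps no strand, so a read from an intron or from a shorter stretch common to both genes could not be assigned.

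The pseudogenes had values of the same order as NCF1. NCF1B was at 0.501 FPKM in sh-Control against 0.472 FPKM with sh-CRNDE, and NCF1C at 1.13 FPKM in sh-Control against 0.561 FPKM with sh-CRNDE. The sum over the 3 loci was 2.23 FPKM in sh-Control against 1.70 FPKM with sh-CRNDE, a change of -0.26. The direction of the summed loci was therefore opposite to that of NCF1 alone. NCF1 made up 26.7% of the sum in sh-Control and 39.3% in sh-CRNDE.

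RAC1, the widely expressed paralog of RAC2, was at 70.3 FPKM in sh-Control against 102.6 FPKM with sh-CRNDE, a change of 0.54. This was under the threshold as reported and at 0.46 with the GC median subtracted, and past it at 0.80 with GAPDH set equal. RAC1 exceeded RAC2 by 4.97-fold in sh-Control and by 9.86-fold in sh-CRNDE. The RAC2-201 transcript was 79.3% identical to RAC1-201 over 537 aligned bases, and no window of 50 bases was shared, while 17.2% of the RAC1-201 windows occurred in the pseudogene RAC1P2.

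The genes with the levels most like those of each member were found by distance in log2(FPKM + 1) over the 2 libraries. MYC and FERMT3 were nearest to CYBB, at distances of 0.07 and 0.08, and 6 genes lay within 0.1 of it. CLPX and RNA5-8S5 were nearest to CYBA, where 26 genes lay within 0.1. IKBKE and ADPGK were nearest to NCF4, SHKBP1 and PYCR1 to RAC2, and TMEM234 and TRIM45 to NCF1, with 49, 29 and 181 genes within 0.1. With 2 libraries this measure holds only level and change.

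The genes that act on the oxidase were described from lists by role, over genes averaging at least 1 FPKM, of which 16.9% were past 1.5-fold (8.78% lower and 8.15% higher). Among 12 genes of the Rac switch, 2 were past the threshold, both lower, and the median change was -0.07. These were the Rac exchange factors PREX1, from 7.13 to 4.08 FPKM (-0.68), and VAV2, from 3.89 to 1.91 FPKM (-0.75). VAV1, the exchange factor of blood cells, changed by -0.08, and ARHGDIB, which holds Rac in the cytosol, by 0.26. The 2 exchange factors were not past 1.5-fold with the GC median subtracted (-0.48 and -0.56) or with GAPDH set equal (-0.47 and -0.57).

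Among 10 chaperones and partners of the oxidase, NRROS was the only gene past 1.5-fold, from 29.0 to 16.5 FPKM, a change of -0.78, and the median of the list was -0.02. NRROS is an endoplasmic reticulum protein that promotes the breakdown of gp91phox. Its change was -0.55 with the GC median subtracted and -0.53 with GAPDH set equal, both under the threshold. CYBC1, the chaperone needed to make the gp91phox and p22phox heterodimer, was at 2.05 FPKM in sh-Control against 1.49 FPKM with sh-CRNDE, a change of -0.29.

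The kinases and lipid enzymes upstream of assembly had a median change of 0.15 over 20 genes, with 1 past 1.5-fold in each direction. SYK, a kinase that couples Fc receptors and integrins to the burst, went from 9.75 to 26.4 FPKM, a change of 1.35. PIK3CD, a leukocyte phosphoinositide 3-kinase, went from 19.5 to 12.2 FPKM, a change of -0.63 that became -0.45 with the GC median subtracted and -0.39 with GAPDH set equal. PRKCB and PRKCD, which phosphorylate p47phox, changed by 0.38 and -0.06.

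Of 11 receptors that prime or trigger the burst, 1 was past 1.5-fold and higher and 2 were lower, with a median of -0.13. FCGR1A, the high-affinity IgG receptor, went from 3.17 to 6.60 FPKM (0.87), and reads may be shared with its near-identical copies. The lipid mediator receptors PTAFR, from 2.19 to 0.0103 FPKM (-1.66), and LTB4R, from 2.73 to 0.897 FPKM (-0.98), were lower. ITGAM and ITGB2, the chains of the complement receptor CR3, changed by 0.05 and -0.44.

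None of the 13 enzymes that supply NADPH was past 1.5-fold, and their median change was -0.11. Among 10 genes that handle the oxidants or balance the charge, 3 were past 1.5-fold, all lower, and the median was -0.27. These were EPX (28.8 to 13.1 FPKM, -1.08), MPO (1135 to 738 FPKM, -0.62) and GPX1 (1.80 to 0.859 FPKM, -0.59). EPX and MPO are granule peroxidases that use the peroxide formed from superoxide, and GPX1 removes peroxide. MPO and GPX1 were not past 1.5-fold with the GC median subtracted or with GAPDH set equal. GPX1 was also just short of it when centred on the median change (-0.583) and with quantile normalization (-0.573), a scaling that put MPO at -1.54. HVCN1, the proton channel that offsets the charge carried out by gp91phox, changed by -0.21.

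Among 15 regulators known for the oxidase genes, 3 were past 1.5-fold and higher and 1 was lower, with a median of 0.13. SPI1, which encodes PU.1, was at 28.0 FPKM in sh-Control against 18.5 FPKM with sh-CRNDE, a change of -0.575 that was just short of 1.5-fold. It was past the threshold with smaller pseudocounts, with quantile normalization and as TPM, at -0.59 to -0.61, and was -0.33 with GAPDH set equal and -0.19 with the GC median subtracted. IRF1, a partner of PU.1 at the CYBB promoter, went from 2.47 to 1.01 FPKM, a change of -0.79. CEBPE, a factor of late granulocyte maturation, went from 0.748 to 8.75 FPKM, a change of 2.48. CEBPA and CEBPB, which have a single exon each, complete the 3 higher genes. They are listed at 0 in sh-Control and at 26.1 and 2.34 FPKM in sh-CRNDE, so no fold is given. Whether a listed 0 in the only control library means absent RNA or a missing value was not tested. The regulators of this list thus moved in both directions.

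**Figure D4:**
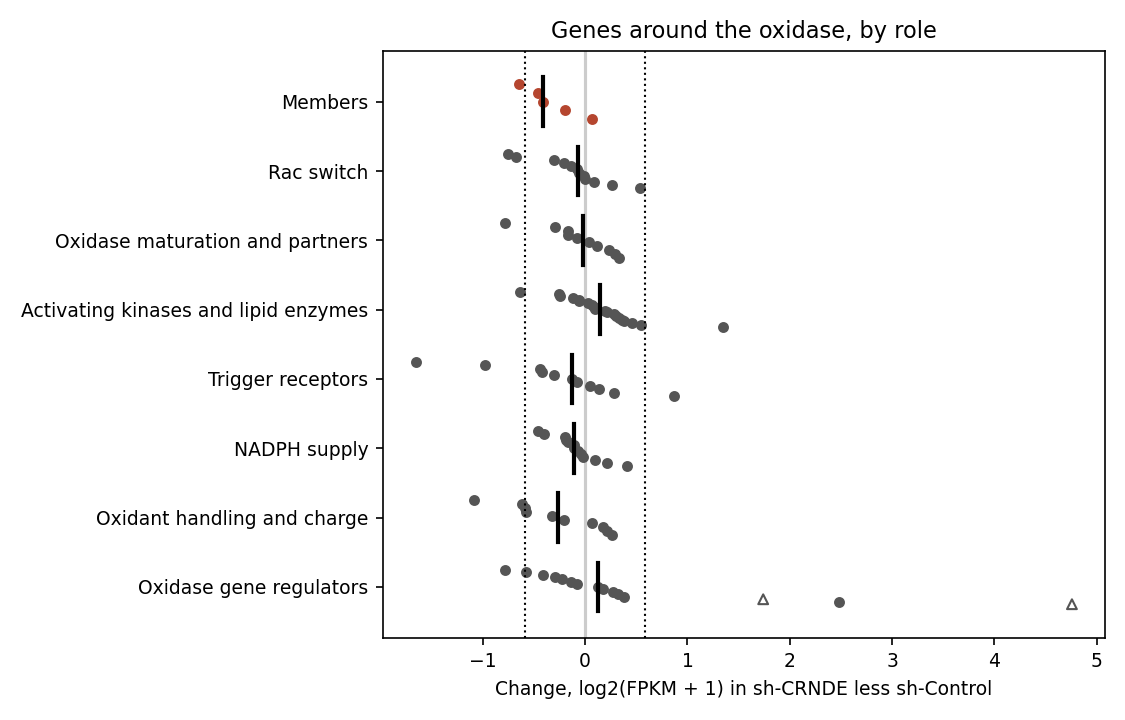
Change in log2(FPKM + 1), sh-CRNDE less sh-Control, of the members (red) and of each gene averaging at least 1 FPKM in 7 lists by role (grey), with bars at the list medians, dotted lines at 1.5-fold and open triangles for genes listed at 0 in sh-Control. The median of the members lies at -0.41 and those of the lists between -0.27 and 0.15.

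Of the later granulocyte markers, 6 of 15 had a value, and their summed level was 24.8 FPKM in sh-Control against 21.5 FPKM with sh-CRNDE. Most of that sum was MMP9, from 17.8 to 13.9 FPKM (-0.33). Of the 4 averaging at least 1 FPKM, S100A9 (0.30) and ITGAM (0.05) were higher and MMP9 and CSF3R (-0.31) lower. None of these 4 was past 1.5-fold. The lower CYBB and CYBA levels went together with levels lower past 1.5-fold of 5 of the 7 promyelocyte markers with a value, namely PRTN3 (-2.23), AZU1 (-1.09), CTSG (-0.96), MS4A3 (-0.77) and MPO. Of all genes averaging at least 1 FPKM, 8.78% were past 1.5-fold and lower. With GAPDH set equal, MS4A3 (-0.53) and MPO (-0.36) were not past 1.5-fold, and with the GC median subtracted MPO (-0.42) was not. PRTN3, AZU1 and CTSG stayed past it under both. The other 2 promyelocyte markers were not past 1.5-fold as reported, with CD33 at -0.20 and LYZ, which encodes the granule enzyme lysozyme, at 0.53, from 21.9 to 32.1 FPKM. The part of that shift in the oxidase values was not tested.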

How the data were processed

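Total RNA of 2 NB4 samples, 1 per group, was made into libraries with the TruSeq RNA Sample Prep Kit v2 and sequenced on an Illumina MiSeq. Per the labels, fastp 0.20.0, HISAT2 2.0.4 and StringTie 1.2.3 with GRCh38 stand in the submitters' processing notes. The authors deposited FPKM values per gene, and each listed gene is above 0.5 FPKM in at least 1 library. From these values log2(FPKM + 1) was taken and a 1.5-fold threshold was used, as in the study. No filter was applied, except a mean of at least 1 FPKM for lists, for the GC medians and for the histogram. With 1 library per group no test was run. Coordinates and transcripts came from GENCODE release 44 (GRCh38), which matched 11508 of the 11619 genes, and GC content was corrected in 20 bins. Promoters came from RefSeq. The members and lists were chosen with earlier results of these data known. Named list genes are those past 1.5-fold, at most 6 per list, beside genes of known role chosen after their values were seen. The change calculation was run on control values with known folds put in and no noise. This checks the code and not the calls in these data. Python 3.11.15, numpy 2.4.6, pandas 2.3.3, matplotlib 3.10.9 and Biopython 1.88 were used. Pseudocounts, scalings and thresholds tried are given at the end.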

Additional observations from a re-analysis of the deposited data

How the results depend on the processing

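The side of 1.5-fold served as the verdict, since there was no replicate spread. The membrane minus cytosolic difference stayed negative under all scalings and pseudocounts, from -0.42 to -0.35. The -0.42 came with the GC median subtracted, where CYBB was at -0.78 but CYBA at -0.08, above RAC2 at -0.22. The difference was -0.30 with NCF1 summed with its pseudogenes and -0.25 without NCF1, both chosen after seeing the data. With equal GAPDH, CYBB was at -0.39, NCF4 and with it the cytosolic median at 0.046, and 0 members, 668 lower and 1848 higher genes were past 1.5-fold. NCF1 with its pseudogenes was at -0.26. The membrane median passed 1.5-fold as TPM (-0.59), with 1667 lower and 1466 higher genes. Pseudocounts of 0.1 and 0.01 gave 1721 and 1828 lower and 1580 and 1653 higher genes, against 1026 and 974 as reported. At 2-fold these were 375 and 399, with 0 members, and with 1 FPKM in both libraries 654 and 585. The monocyte list median went from 0.26 to -0.24 with all listed genes. Of the 15 genes past 1.5-fold in the 7 lists by role, cell type markers aside, 9 remained so with the GC median subtracted and 9 with equal GAPDH, and 14 when centred on the median and with quantile normalization. The causes were not tested. No paired analysis was possible because there was 1 library per group.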
